A study of Rattus norvegicus with 30 samples.

Results

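Primary rat hepatocytes that had been in 20 µM chlorpromazine for 48 h were compared with hepatocytes that had been in it for 24 h. The arrays were chosen by the dose and time in their titles, 5 at 48 h and 5 at 24 h, which is 10 of the 30 arrays of the series. All probe sets were used. The cells were bought frozen, came from male Sprague Dawley rats, and were plated on collagen under a Matrigel overlay. On day 3 of culture they received chlorpromazine HCl at 20 µM, chlorpromazine HCl at 0.8 µM, or only the vehicle, 1% DMSO, and each treatment was harvested after 48 h and after 24 h. Every one of the 6 groups had 5 wells with 1 array each. Drug and vehicle dosing solutions were made up in DMSO, so no culture was free of it, and no donor animals are named, so p-values measure the spread between wells. The vehicle and 0.8 µM cultures serve below to show what the same 24 h did to the cells without the drug or with less of it.

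Chlorpromazine is a phenothiazine antipsychotic drug that can cause cholestatic liver injury. It is a cationic amphiphilic compound, a weak base with a fatty part, and such compounds gather in lysosomes, where phospholipids then accumulate. Hepatocytes carry the liver's drug metabolism, bile acid synthesis, urea cycle and plasma protein secretion, and much of this expression is known to decline when the cells are cultured.

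Array signals are linear MAS5 intensities, and every array was scaled to the same trimmed mean of 1499.9. A gene is represented by the probe set with the highest mean, changes are log2 of the 48 h over the 24 h signal with their standard error (SE), and a gene was called, or said to rise or fall, where limma's moderated test gave a Benjamini-Hochberg adjusted p under 0.05 over all 31042 probe sets. Median signals per array ran from 378.9 to 447.6, and arrays correlated with the others of their group at 0.940 to 0.952 on average. Along the second principal component (5.22% of the variance) the arrays at 20 µM lay between -36.2 and -15.6 at 48 h and between 4.23 and 27.3 at 24 h. The signal of the 5S ribosomal RNA control was 759.6 to 1114 at 48 h and 1296 to 1471 at 24 h, a difference of the same direction as in vehicle (724.8 to 923.4 against 1415 to 1795), and its part in the results was not tested. The ratio of the 3′ to the 5′ GAPDH control, a sign of RNA integrity, was 1.13 to 1.19 at 48 h and 1.11 to 1.16 at 24 h in 20 µM. The same ratio of the beta-actin control was higher, at 2.263 to 2.734 at 48 h and 2.267 to 2.685 at 24 h.

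One vehicle array stood apart from its label. On the 533 genes called between 48 h and 24 h at 0.8 µM, a scale was set with 0% at the mean of the other 4 vehicle arrays at 24 h and 100% at the mean of the vehicle arrays at 48 h. Vehicle replicate 5 at 24 h lay at 35.8% of this scale, and the other 4 lay between -2.8% and 1.8%. The 20 µM arrays lay between 78.9% and 97.8% at 48 h and between 2.2% and 7.6% at 24 h. At 0.8 µM, whose arrays chose the genes, replicate 1 at 24 h lay at 24.8% and the other 4 between -15.3% and 0%. Differences between the change at 20 µM and the change in vehicle are therefore given with all arrays and, in parentheses, without that vehicle array. Another vehicle array at 24 h has a title that gives 2 h and a time entry that gives 24 h, and it was kept by its time entry. Without it 988 genes were called in vehicle, where all arrays gave 1197, and 256 in the difference from vehicle (94 higher and 162 lower), where all arrays gave 355. Among the genes named below, the difference from vehicle then lost its call for Acta1, Atp6v1d, Bhmt, Gjb1, Gpnmb, Hamp, Igf1, Lratd1, Lyz2, Pcna, Pfkp and Serpina3l, and Lrrc8e lost its call at 20 µM. With the mean of all probe sets of a gene in place of the brightest, Atp6v1b2, Ccne2, Clock, Fgb and Per2 lost their calls at 20 µM, and Atp6v0b, Atp6v1b2 and Lrmda theirs for the difference from vehicle. Other such cases are given beside the gene.

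Between 24 h and 48 h in 20 µM chlorpromazine, 14 of 27 constitutive P450 and flavin monooxygenase genes, 8 of 22 hepatocyte transporters, 8 of 30 genes of fatty acid oxidation and 18 of 41 secreted plasma proteins fell, with 0 higher in these lists. Of 45 lysosomal genes 11 rose and 3 fell, and of 16 subunits of the vacuolar proton pump 6 rose and 0 fell. Of 14217 genes tested, 978 were called (6.88%), 479 of them higher (3.37%) and 499 lower (3.51%) at 48 h. At least 2-fold changes were found for 38 of the genes that rose and 36 of those that fell, and 77.2% of all called genes changed less than 1.5-fold. The 5 arrays at 48 h lay entirely above the 5 at 24 h for 629 genes (4.42%) and entirely below for 598 (4.21%). A group mean lay in the dim range, under a signal of 271, for 35 of the called genes. Another probe set of the same gene existed for 310 called genes, was called the same way for 55 of them, and was called the opposite way for 1, Slain2, named here after its values were seen.

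The same 24 h in vehicle changed 1197 genes (8.42%), 604 higher (4.25%) and 593 lower (4.17%). Of the 479 genes that rose at 20 µM, 160 also rose in vehicle, which is 33.4% of the 20 µM list and 26.5% of the vehicle list. Of the 499 that fell, 178 also fell in vehicle (35.7% and 30.0%). These 2 comparisons share no arrays, and across the 10456 genes above the dim limit their changes correlated at 0.33 (Pearson), which is a description across genes measured on one array design. The change at 20 µM differed from that in vehicle for 355 genes (2.5%), 143 of them with a higher (1.01%) and 212 with a lower value (1.49%) at 20 µM (without the vehicle array, 482 genes, 192 and 290). Centring every array on its own median instead gave 56 and 129. Among the 143 genes, 66 rose at 20 µM and were not called in vehicle, and 51 were not called at 20 µM and fell in vehicle. Among the 212, 80 fell at 20 µM and were not called in vehicle, and 78 were not called at 20 µM and rose in vehicle.

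**Figure D1:**
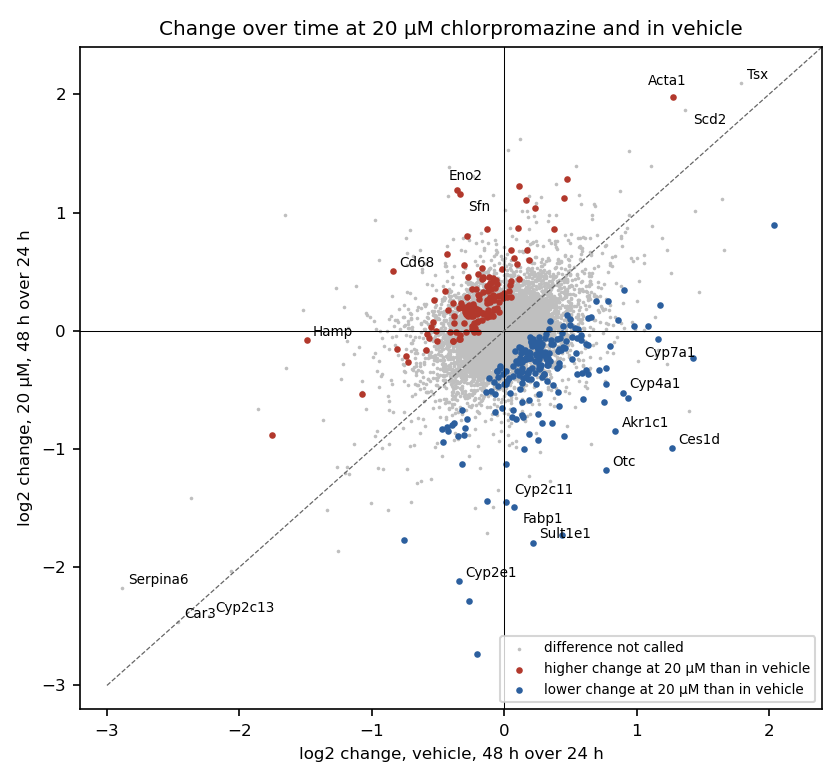
Log2 change from 24 h to 48 h at 20 µM (vertical axis) and in vehicle (horizontal axis) for the 10456 genes above the dim limit, each point 1 gene, with the dashed line marking equal change. Coloured points are genes whose changes differed between 20 µM and vehicle at adjusted p under 0.05. Car3, Cyp2c13 and Serpina6 lie near the dashed line, and Ces1d, Otc and Akr1c1 lie below it on the right, with a rise in the vehicle means and a fall at 20 µM.

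Constitutive P450 enzymes, the oxidases that handle steroids, fatty acids and drugs, gave the highest share of called members of the 40 gene lists used. Of 27 measured P450 and flavin monooxygenase genes, 14 fell and 0 rose at 48 h, with a median change of -0.51 against 0.007 over all genes. Cyp2e1, the ethanol-oxidising P450, gave signals of 1558, 1208, 1444, 1115 and 1137 at 48 h, against 5123, 6020, 5010, 5392 and 6361 at 24 h. The highest array at 48 h was far below the lowest at 24 h, and the gene fell 4.34-fold (-2.12 ± 0.09, adjusted p = 6.52e-16). Cyp2c11, the main male-specific P450 of rat liver, had 4518, 4606, 4388, 4955 and 4294 at 48 h, against 13003, 11066, 13580, 11792 and 12886 at 24 h (-1.45 ± 0.09, adjusted p = 1.53e-12). Its vehicle signals stayed between 14978 and 17051 at 48 h and between 15026 and 18466 at 24 h. Both genes differed from vehicle in their change over time, Cyp2e1 by -1.78 ± 0.13 (-1.75) and Cyp2c11 by -1.46 ± 0.13 (-1.51). At 0.8 µM both fell by 0.62 on the log2 scale, and the differences from that dose were called (-1.50 and -0.83).

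Cyp2c13 and Cyp2c7 fell at 20 µM and in vehicle. Cyp2c13 had 2489, 3085, 3445, 1858 and 2681 at 48 h, against 12455, 14960, 13717, 14556 and 15286 at 24 h (-2.41 ± 0.26, adjusted p = 1.48e-07), and its change in vehicle was -2.23. Cyp2c7 changed by -1.52 ± 0.19 (adjusted p = 1.53e-06) at 20 µM and by -1.34 in vehicle. The differences from vehicle were not called, at -0.18 ± 0.36 (0.08) for Cyp2c13 and -0.18 ± 0.26 (0.03) for Cyp2c7. Cyp2c12, the female-specific member, had 329, 448, 387, 33 and 279 at 48 h, against 1450, 1809, 1295, 1261 and 1601 at 24 h. The array at 33 alone brings its 48 h mean into the dim range, and it enlarges the change of -2.73 ± 0.42. Probe sets of the Cyp2c family can read close relatives, so the assignment of these signals to single genes is uncertain. In vehicle, 7 members of the P450 list rose and 8 fell, and the change at 20 µM was lower than in vehicle for 12 members and higher for 0 (11 and 0).

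**Figure D2:**
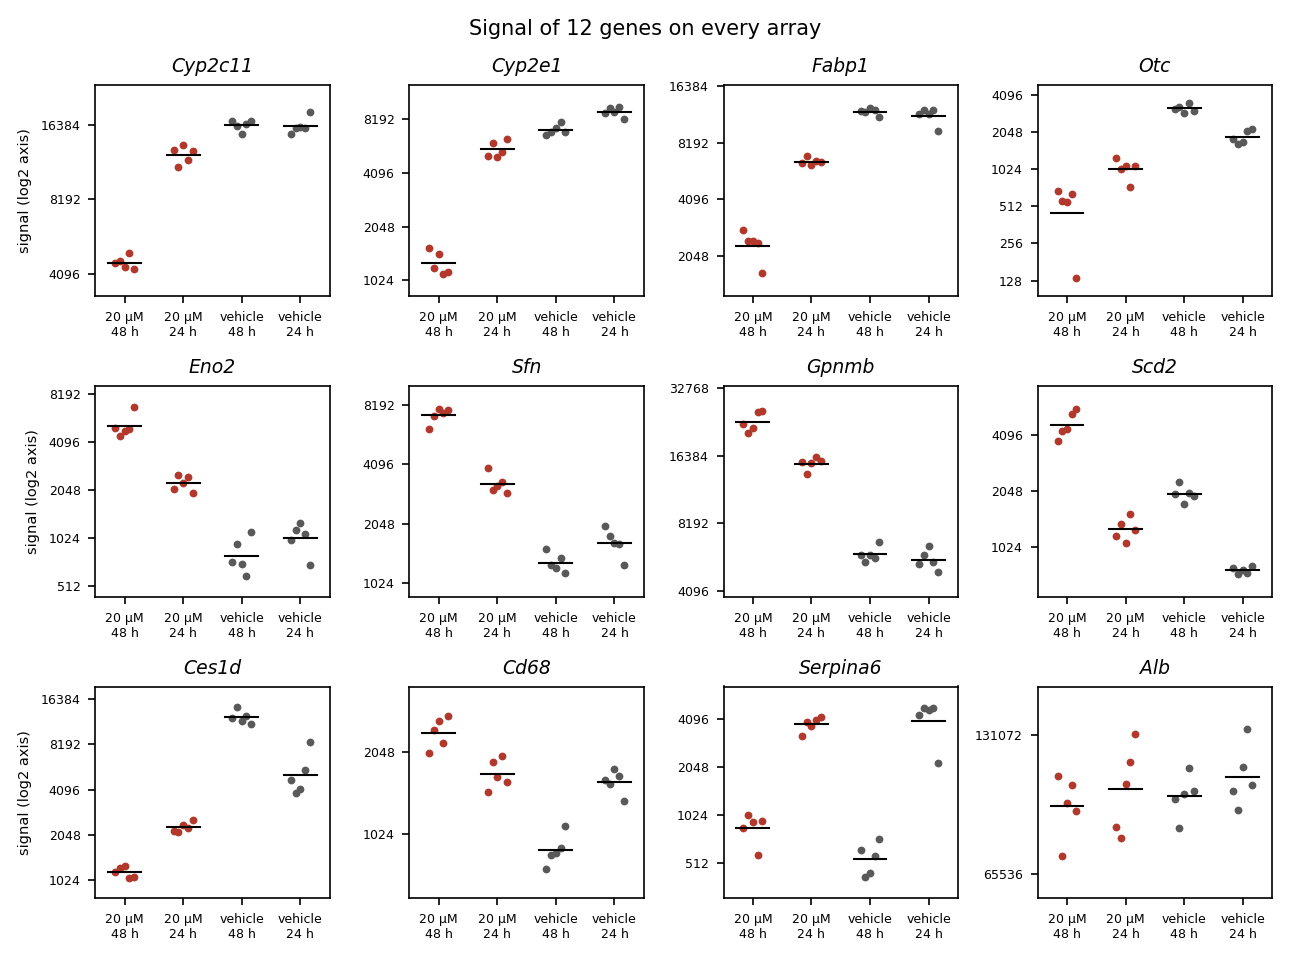
Signal on each of the 5 arrays per group for 12 genes (log2 axis), in the order 20 µM at 48 h, 20 µM at 24 h, vehicle at 48 h and vehicle at 24 h, with a bar at the geometric mean. The arrays at 48 h and 24 h in 20 µM do not overlap for 11 of the genes and overlap for Alb, and 1 vehicle array at 24 h lies toward the 48 h level for Ces1d and Serpina6.

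CAR and PXR are nuclear receptors, and AhR is the aryl hydrocarbon receptor, and all of them switch on drug-metabolising enzymes in response to chemicals. Of 12 measured targets of CAR and PXR 4 fell and 1, Aldh1a1, rose (0.34 ± 0.10). Cyp3a2, a male-predominant P450, had 2829, 2747, 2668, 1710 and 2682 at 48 h, against 7724, 9697, 7854, 9466 and 10720 at 24 h (-1.86 ± 0.23, adjusted p = 1.53e-06), and Cyp3a9 changed by -0.98 ± 0.15. Cyp3a18, counted in the P450 list, had 1934, 1865, 1610, 1629 and 1465 at 48 h, against 3239, 3064, 2941, 3059 and 3413 at 24 h, with no overlap (-0.89 ± 0.07, adjusted p = 1.74e-10). In vehicle it rose by 0.45, a difference of -1.34 ± 0.10 (-1.35). Of 7 AhR targets 2 fell and 0 rose. Cyp1a2 had 19146, 15210, 15093, 19278 and 15884 at 48 h, against 25582, 21935, 26190, 23360 and 25228 at 24 h, a fall of -0.54 ± 0.07 that was smaller than the -1.07 of vehicle (difference 0.54 ± 0.10, adjusted p = 0.00272, and 0.53 without the vehicle array). Cyp1a1, the classic AhR target, changed by -0.17 ± 0.09 (adjusted p = 0.433).

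Conjugation enzymes attach sulfate, glutathione or glucuronic acid to drugs and hormones, and 4 of 29 rose and 2 fell. Sult1e1, the estrogen sulfotransferase, had 472, 373, 503, 487 and 440 at 48 h, against 1295, 1839, 1583, 1569 and 1601 at 24 h. All 5 later arrays were below all earlier ones (-1.79 ± 0.16, adjusted p = 4.49e-09), and the difference from vehicle was -2.01 ± 0.23 (-1.82). Sult1e1 fell at 0.8 µM too (-0.98 ± 0.16), and its difference from that dose was not called (-0.82 ± 0.23, adjusted p = 0.134). Sult1c2 rose by 1.07 ± 0.15 and Gsta3, an alpha class glutathione transferase, by 0.43 ± 0.10, while Sult1c3 fell by 1.28 on the log2 scale. Gstp3, a pi class glutathione transferase outside the list, changed by -2.03 ± 0.37 and by -2.07 in vehicle. In vehicle 8 conjugation genes rose and 0 fell.

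Of 17 bile acid synthesis genes 1 rose and 2 fell at 20 µM, where 3.37% of all genes rose and 3.51% fell. In vehicle 6 of them rose and 2 fell. Cyp7a1, the rate-limiting enzyme, had 460, 551, 582, 638 and 360 at 48 h, against 657, 688, 610, 468 and 646 at 24 h, and the groups overlapped (-0.26 ± 0.25, adjusted p = 0.741). Its vehicle signals were 3353, 4494, 2867, 3824 and 3004 at 48 h, against 1699, 1326, 1341, 1440 and 3410 at 24 h. The vehicle array that stood apart is the highest of the 24 h group, and the difference of -1.27 ± 0.36 was not called with it (adjusted p = 0.0658) but was called without it (-1.52, adjusted p = 0.00644). Cyp8b1, the sterol 12-alpha-hydroxylase, had 3222, 3110, 3061, 2171 and 2403 at 48 h, against 3825, 4693, 3383, 3774 and 4756 at 24 h (-0.55 ± 0.09, adjusted p = 0.000171). Slc27a5, the bile acid CoA ligase, changed by -0.64 ± 0.16 at 20 µM, with a difference from vehicle of -1.05 ± 0.22 (-1.17). Cyp27a1, the sterol 27-hydroxylase, rose by 0.23 at 20 µM and by 0.29 in vehicle.

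Hepatocyte transporters fell, with 8 of 22 lower and 0 higher. Slc10a1, the sodium-dependent bile acid importer, had 2634, 2520, 2022, 1767 and 1518 at 48 h, against 3969, 4401, 3753, 3634 and 3742 at 24 h. No array overlapped (-0.93 ± 0.12, adjusted p = 2.36e-06), and the difference from vehicle was -1.18 ± 0.16 (-1.22). The organic anion importers Slco1b2 (-0.78 ± 0.15), Slco1a1 (-0.60 ± 0.16) and Slc22a8 (-0.78 ± 0.18) also fell, and Slco1a1 rose by 0.75 in vehicle. Abcb11, the bile salt export pump, had 14369, 14885, 14318, 14578 and 14741 at 48 h, against 14296, 13919, 14622, 13126 and 14232 at 24 h (0.06 ± 0.04, adjusted p = 0.618). The phospholipid exporter Abcb4 changed by -0.23 ± 0.09 (adjusted p = 0.202). In vehicle 4 transporters rose and 2 fell, and the change at 20 µM was lower than in vehicle for 4 and higher for 0 (5 and 0).

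Genes of fatty acid oxidation and targets of PPARalpha, the nuclear receptor that switches on fat burning, held members that fell at 20 µM and members that rose in vehicle. In vehicle 9 of 30 rose and 1 fell (median 0.20), at 0.8 µM 9 rose and 0 fell (median 0.16), and at 20 µM 0 rose and 8 fell (median -0.11). The change at 20 µM was lower than in vehicle for 11 members and higher for 0 (12 and 0), and lower than at 0.8 µM for 10 and higher for 0 (12 and 0 without the 0.8 µM array that lay toward 48 h). Fabp1, the fatty acid binding protein of the liver cytosol, had 2797, 2439, 2455, 2394 and 1652 at 48 h, against 6353, 6932, 6201, 6502 and 6484 at 24 h (-1.49 ± 0.10, adjusted p = 6.41e-12). In vehicle its signals were between 11159 and 12569 at 48 h and between 9404 and 12207 at 24 h, and the difference was -1.56 ± 0.14 (-1.50). Cyp4a1, a fatty acid omega-hydroxylase, had 1643, 1294, 1297, 1491 and 983 at 48 h, against 1962, 1991, 2116, 1472 and 2034 at 24 h (-0.52 ± 0.15, adjusted p = 0.0461). The later arrays at 1643 and 1491 exceeded the lowest earlier one. Cyp4a1 rose by 0.90 in vehicle and by 1.00 at 0.8 µM.

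Angptl4, an inhibitor of lipoprotein lipase, fell to 1691, 1551, 1948, 2040 and 1449 at 48 h, against 3125, 2895, 3343, 2465 and 3029 at 24 h (-0.78 ± 0.13, adjusted p = 0.000136). The difference from vehicle was -1.07 ± 0.18 (-1.16). Pdk4, a kinase that restrains pyruvate oxidation, fell by 0.71 on the log2 scale (adjusted p = 1.23e-05), with a difference of -0.96 ± 0.14 (-0.99). With the mean of its probe sets these were -0.40 and -0.56, both called. Vnn1 and Ehhadh, named after their values were seen, differed from vehicle and rose there. Vnn1, a pantetheinase, changed by 0.04 ± 0.15 at 20 µM and by 1.08 in vehicle, and Ehhadh, a peroxisomal oxidation enzyme, by -0.32 ± 0.18 (adjusted p = 0.443) and by 0.77. Cpt1a, the gate of mitochondrial oxidation, changed by -0.41 ± 0.14 (adjusted p = 0.108).

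PPARalpha binds with its partner RXR to DR1 elements, 2 copies of AGGNCA with 1 base between them. Of the RefSeq promoter windows of the rat (GRCr8, 250 bases before to 50 after each gene's start, 33469 windows), 0.415% hold these letters on either strand, and of the 24 list members with a window, 1 does, which is Fabp1. Its sequence is shown because Fabp1 fell most of the list, at chr4:104749194-104749343 on the plus strand, with the match in capitals, 77 to 65 bases before the start.
Fabp1: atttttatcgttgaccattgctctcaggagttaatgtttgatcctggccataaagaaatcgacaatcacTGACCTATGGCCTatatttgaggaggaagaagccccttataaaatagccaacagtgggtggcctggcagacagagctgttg
A match is a description of letters, and binding was not measured.

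More lysosomal genes rose than fell at 20 µM. Of 45 measured lysosomal hydrolases and membrane proteins 11 rose and 3 fell (median 0.12), of 16 subunits of the vacuolar proton pump, which acidifies lysosomes, 6 rose and 0 fell (median 0.15), and of 18 nutrient sensing genes and MiT/TFE factors 3 rose and 1 fell (median 0.03). In vehicle the counts were 2 and 8, 0 and 2, and 0 and 0. Differences from vehicle were positive for 5, 4 and 1 members and negative for 0 (7, 4 and 1, with 1 nutrient sensing gene, Rraga, negative without the vehicle array). Gpnmb, a glycoprotein in the membrane of lysosomes, had 22624, 20654, 21709, 25502 and 25819 at 48 h, against 15332, 13511, 15193, 16102 and 15433 at 24 h (0.62 ± 0.10, adjusted p = 0.000128). Its vehicle signals were 5481 to 6749 at 48 h and 4993 to 6517 at 24 h, and the difference was 0.54 ± 0.14 (0.59). Manba, beta-mannosidase, had 3806, 3729, 3652, 4606 and 4743 at 48 h, against 2582, 2478, 2537, 2647 and 2479 at 24 h (0.68 ± 0.08, adjusted p = 4.61e-07). Naglu, a heparan sulfate hydrolase, rose by 0.47 ± 0.13. Ctss, the cathepsin S of macrophages and other antigen-presenting cells, fell by 0.97 on the log2 scale (adjusted p = 2.56e-06).

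Subunits of the proton pump rose by less than 1.5-fold. Atp6v0b, a membrane subunit, had 12376, 11472, 12131, 12148 and 11839 at 48 h, against 8846, 8944, 7744, 8957 and 9504 at 24 h (0.45 ± 0.08, adjusted p = 0.000236). Atp6v1d (0.39 ± 0.08), Atp6v1b2 (0.30 ± 0.07) and Atp6v1f (0.26 ± 0.05) of the catalytic sector followed, and all 4 subunits differed from vehicle by 0.33 to 0.53 (0.37 to 0.58). Rragd, a Rag GTPase of lysosomal amino acid sensing, had 2645, 2678, 2945, 2802 and 3272 at 48 h, against 1783, 1945, 1966, 2145 and 2081 at 24 h (0.53 ± 0.12, adjusted p = 0.00427). Vehicle signals of Rragd were 588 to 780 at 48 h and 574 to 838 at 24 h, with a difference of 0.48 ± 0.16 that was not called (adjusted p = 0.179, and 0.51 without the vehicle array). Lamtor3, part of the complex that anchors Rag GTPases, rose by 0.36 ± 0.05, while the Rag GTPase Rraga fell by 0.26. Of 22 autophagy genes 1 rose, Optn (0.44 ± 0.05), and 0 fell.

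TFEB and related factors bind the letters GTCACGTG, which contain the E-box CACGTG, so every match of the longer motif is also one of the shorter. GTCACGTG was found on either strand in 1.85% of the 33469 promoter windows, in 10 of the 63 lysosomal, pump and nutrient sensing genes with a window, and in 1 of the 14 of these that rose, Lamp1. CACGTG was found in 6.42% of all windows, in 12 of the 63 and in 3 of the 14. Lamp1 and Cd63, lysosomal membrane proteins named after their values were seen, are shown because they rose and hold such letters. Capitals mark GTCACGTG, read on the other strand, in Lamp1 and CACGTG in Cd63, and a further CACGTG outside the longer motif stands in lower case in the Lamp1 stretch. Lamp1 lies at chr16:83075152-83075301 on the minus strand, with 2 of its 4 matches to GTCACGTG in the stretch and the first 167 to 160 bases before the start, and Cd63 at chr7:1921894-1922043 on the plus strand, 190 to 185 bases before the start.
Lamp1: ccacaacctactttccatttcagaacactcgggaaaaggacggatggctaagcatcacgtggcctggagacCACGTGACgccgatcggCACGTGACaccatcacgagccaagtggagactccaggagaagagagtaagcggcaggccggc
Cd63: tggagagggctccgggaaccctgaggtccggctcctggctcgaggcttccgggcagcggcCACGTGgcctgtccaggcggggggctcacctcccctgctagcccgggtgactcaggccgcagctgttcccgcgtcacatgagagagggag
Lamp1 had 23505, 25465, 23754, 24250 and 25125 at 48 h, against 20413, 21819, 20442, 20777 and 20714 at 24 h (0.23 ± 0.05, adjusted p = 0.00156, and 0.13 and not called with the mean of its probe sets), with a difference from vehicle of 0.24 ± 0.06 that was called only without the vehicle array (adjusted p = 0.0552, and 0.0342 without it). Cd63 rose by 0.29 ± 0.08 at 20 µM and fell by 0.28 in vehicle, a difference of 0.57 ± 0.12 (0.66).

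**Figure D3:**
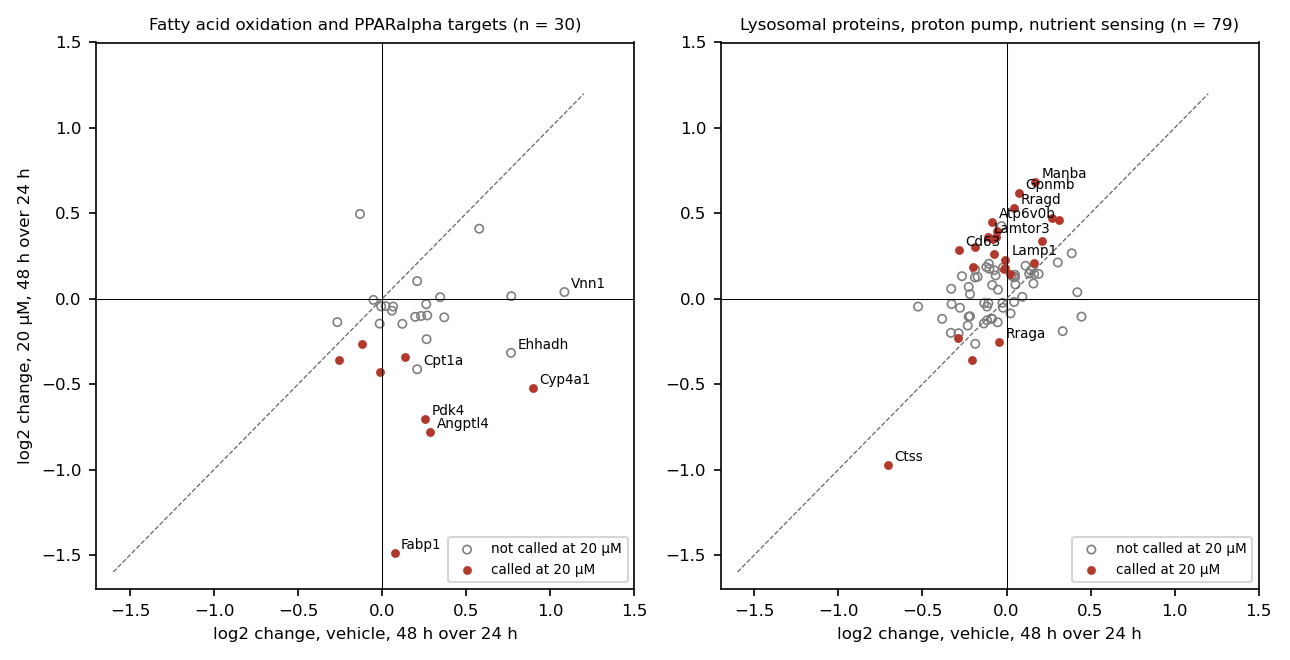
Log2 change from 24 h to 48 h at 20 µM (vertical axis) and in vehicle (horizontal axis) for the 30 measured genes of fatty acid oxidation (left) and the 79 measured lysosomal, proton pump and nutrient sensing genes (right), with the dashed line marking equal change. Filled points were called at 20 µM. On the left the called genes all lie below 0 at 20 µM, and on the right 20 of the called genes lie above 0.

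In the list of glycolytic and hypoxia-responsive genes 5 of 26 rose at 20 µM and 0 fell, and the difference from vehicle was positive for 6 and negative for 0 (7 and 0). It was positive for 3 without the vehicle array titled 2 h. Eno2, the neuronal form of enolase, had 5023, 4484, 4797, 4967 and 6854 at 48 h, against 2084, 2547, 2282, 2488 and 1974 at 24 h. The groups did not overlap (1.19 ± 0.17, adjusted p = 1.43e-05), its vehicle signals were 593 to 1125 at 48 h and 693 to 1280 at 24 h, and the difference was 1.55 ± 0.24 (1.69). Slc16a3, the lactate exporter of glycolytic cells, rose by 0.65 ± 0.16 with a difference of 1.09 ± 0.23 (1.26), and Pfkp, the platelet type of phosphofructokinase, by 0.60 ± 0.07. Ldhb, a lactate dehydrogenase subunit outside the list, rose in both, with 3768, 3976, 3869, 3749 and 3999 at 48 h, against 1338, 1562, 1402, 1678 and 1405 at 24 h (1.40 ± 0.08, adjusted p = 3.48e-13), and by 1.11 in vehicle. Of 11 genes of glucose production and glycogen 3 fell and 0 rose. Pck1, the gate of gluconeogenesis (-0.88 ± 0.20), Slc37a4, the glucose-6-phosphate carrier (-0.38 ± 0.08), and Pc, pyruvate carboxylase (-0.31 ± 0.07), fell. Of 26 respiratory chain genes limma called 0 at 20 µM, with 5 at an unadjusted p under 0.05. Over all genes 2704 of 14217 were under that limit. Cox4i1 changed by -0.01 ± 0.06.

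Amino acid catabolism and the urea cycle gave 12 lower and 3 higher genes of 46 (median -0.16), against 7 lower and 4 higher in vehicle. Otc, the urea cycle enzyme ornithine transcarbamylase, had 680, 562, 557, 642 and 135 at 48 h, against 1247, 1023, 1093, 732 and 1085 at 24 h (-1.18 ± 0.26, adjusted p = 0.00371). The array at 135 lies well below the other 4, and without it the change was -0.75 (adjusted p = 0.000251). The difference of Otc from vehicle was -1.95 ± 0.36 (-2.00). Bhmt, which remethylates homocysteine, had 30616, 24781, 25453, 26639 and 22878 at 48 h, against 35484, 35523, 41408, 32695 and 43789 at 24 h (-0.53 ± 0.08, adjusted p = 2.96e-05). Sardh, sarcosine dehydrogenase (-0.52 ± 0.06), and Cth, which makes cysteine (-0.45 ± 0.08), fell as well, and Cth differed from vehicle by -0.69 ± 0.12 (-0.79).

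**Figure D4:**
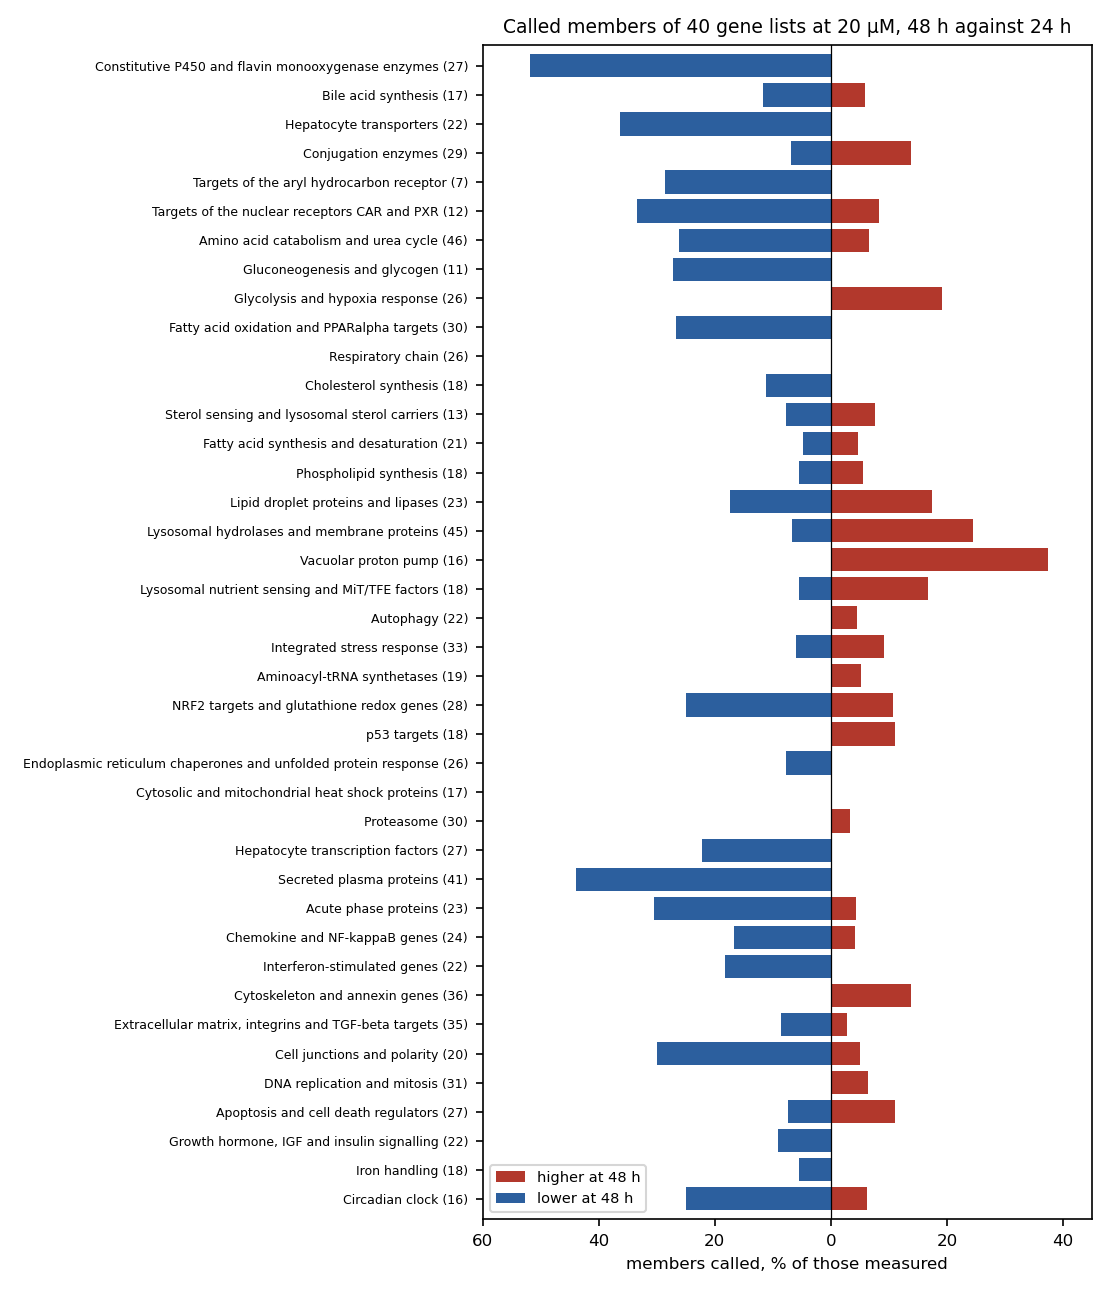
Share of the measured members (number in parentheses) of each of the 40 gene lists that was called higher (right) or lower (left) at 48 h against 24 h in 20 µM, in percent. Over all genes 3.37% were higher and 3.51% lower. The longest bars are those of P450 enzymes (14 of 27 lower), secreted plasma proteins (18 of 41 lower) and the proton pump (6 of 16 higher).

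Desaturase genes were called in both directions. Scd2, outside the lists, a fatty acid desaturase, had 3797, 4280, 4381, 5305 and 5671 at 48 h, against 1166, 1365, 1077, 1528 and 1262 at 24 h (1.87 ± 0.11, adjusted p = 4.06e-13). It rose by 1.36 in vehicle, and the difference of 0.51 ± 0.15 was not called (0.49). None of its other 3 probe sets was called, and the mean of all 4 gave a change of 1.00. Scd, the major desaturase of liver, fell by 0.51 on the log2 scale (adjusted p = 1.44e-06), and Fads1, the delta-5 desaturase, was among the 21 fatty acid synthesis and desaturation genes the 1 that rose (0.76 ± 0.14). Fasn, fatty acid synthase, changed by 0.18 ± 0.15 at 20 µM (adjusted p = 0.665) and by 0.62 in vehicle. Of 18 cholesterol synthesis genes 0 rose and 2 fell, the sterol reductase Tm7sf2 (-0.76 ± 0.07) and the sterol isomerase Ebp (-0.51 ± 0.06), while 6 rose and 1 fell in vehicle. The lanosterol demethylase Cyp51 changed by -0.09 ± 0.09 (adjusted p = 0.739). The sterol sensors Insig1 (0.24 ± 0.05) and Insig2 (-0.64 ± 0.10) went opposite ways. Among phospholipid genes Pemt, which makes phosphatidylcholine from phosphatidylethanolamine, fell by 0.60 and Cds1, which makes CDP-diacylglycerol, rose by 0.62, 1 each way of 18.

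Of 23 lipid droplet proteins and lipases 4 rose and 4 fell. Ces1d, a carboxylesterase that hydrolyses triglyceride, had 1172, 1240, 1270, 1064 and 1070 at 48 h, against 2169, 2130, 2398, 2279 and 2563 at 24 h (-0.99 ± 0.16, adjusted p = 0.000102). In vehicle it had 12227, 14476, 11691, 12611 and 11088 at 48 h, against 4759, 3891, 4106, 5507 and 8525 at 24 h, a rise of 1.27. The last of these values belongs to the array that stood apart, and the difference was -2.26 ± 0.22 (-2.44). Pnpla3 (0.66 ± 0.18) and Hsd17b13 (0.62 ± 0.11), proteins of the droplet surface, rose at 20 µM and in vehicle, and Lipc, hepatic lipase, fell in both (-0.56 ± 0.08 and -0.88). Probe sets of carboxylesterases can read relatives of the family, so the assignment of the signal to Ces1d is uncertain.

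Ddit3, the stress transcription factor CHOP, had 6798, 6681, 7217, 6679 and 8585 at 48 h, against 5126, 4941, 5285, 5787 and 5020 at 24 h (0.45 ± 0.12, adjusted p = 0.0227), with a difference from vehicle of 0.73 ± 0.17 (0.81). Psat1, of serine synthesis, rose by 0.47 at 20 µM and by 0.66 in vehicle. Of 33 genes of the integrated stress response 3 rose and 2 fell, and Atf4 (0.01 ± 0.04), Trib3 (-0.11 ± 0.11) and Asns (0.10 ± 0.07) were not called. Of 28 NRF2 targets and redox genes 3 rose and 7 fell. Nqo1, a quinone reductase, had 46423, 44117, 46386, 45955 and 40105 at 48 h, against 54037, 53130, 59680, 54790 and 60941 at 24 h (-0.34 ± 0.05, adjusted p = 5.85e-05), much as in vehicle (-0.29), and Gsta4 rose in both by 0.43. Hmox1, heme oxygenase, changed by -0.08 ± 0.08 (adjusted p = 0.77).

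Among 18 genes that p53 is known to switch on, 2 rose and 0 fell, and Sfn, 14-3-3 sigma, changed most. It had 6206, 7162, 7768, 7430 and 7693 at 48 h, against 3907, 3033, 3174, 3317 and 2911 at 24 h (1.15 ± 0.11, adjusted p = 6.36e-09). Vehicle signals of Sfn were 1143 to 1522 at 48 h and 1268 to 1982 at 24 h, and the difference was 1.48 ± 0.15 (1.58). The p53 targets Cdkn1a (-0.09 ± 0.09) and Mdm2 (0.13 ± 0.06) were not called, and Ccng1 rose by 0.24. Of 17 heat shock proteins limma called 0, with 2 at an unadjusted p under 0.05 (2704 of 14217 over all genes). In other protein quality lists 2 of 26 chaperone and unfolded protein response genes fell (Syvn1 and Xbp1), and 1 of 30 proteasome genes rose (Psma3). Of 31 replication and mitosis genes 2 rose, Pcna (0.29 ± 0.05) and Ccne2 (0.52 ± 0.15), and Mki67 was dim at 82 to 131 at 48 h and 70 to 146 at 24 h. Of 27 cell death regulators 3 rose and 2 fell. Casp4, an inflammatory caspase, had 5184, 5345, 4825, 5608 and 6121 at 48 h, against 3375, 3391, 3165, 3340 and 3502 at 24 h (0.69 ± 0.08, adjusted p = 5.93e-07), with a difference from vehicle of 0.64 ± 0.11 (0.68).

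Secreted plasma proteins fell widely, 18 of 41 with 0 higher at 20 µM (median -0.20), and 13 fell and 3 rose in vehicle. Serpina6, corticosteroid-binding globulin, had 843, 1031, 931, 571 and 936 at 48 h, against 3218, 3966, 3725, 4082 and 4216 at 24 h (-2.18 ± 0.26, adjusted p = 7.74e-07). It also fell in vehicle (-2.89). The difference of 0.71 ± 0.36 was not called (adjusted p = 0.481), nor was that of 0.93 without the vehicle array (adjusted p = 0.196). Apoa2, an apolipoprotein, had 16496, 17700, 17303, 14327 and 15313 at 48 h, against 34002, 35369, 37472, 36415 and 38617 at 24 h (-1.17 ± 0.07, adjusted p = 8.86e-13), and changed by -0.91 in vehicle. Klkb1, plasma prekallikrein, fell at 20 µM and was not called in vehicle or at 0.8 µM, with 946, 1051, 1018, 738 and 884 at 48 h, against 1686, 2023, 2560, 1742 and 2180 at 24 h (-1.13 ± 0.13, adjusted p = 7.37e-07). Its difference was -1.14 ± 0.19 from vehicle (-1.14) and was called from 0.8 µM too (adjusted p = 0.00106). The complement subunit C8b fell by 0.89 and afamin (Afm), a vitamin E binding protein, by 1.51 on the log2 scale. Alb, albumin, overlapped between 71687 to 106971 at 48 h and 78443 to 131977 at 24 h (-0.12 ± 0.14, adjusted p = 0.79).

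Car3, a carbonic anhydrase abundant in male rat liver, fell with and without the drug, to 1666, 1519, 1404, 917 and 1284 at 48 h, against 6370, 7890, 6670, 7697 and 8280 at 24 h (-2.46 ± 0.34, adjusted p = 9.23e-06, and -2.46 in vehicle). Of 23 acute phase genes 7 fell and 1 rose, among them Apcs (-0.56 ± 0.07), A2m (-0.41 ± 0.10) and Fgb (-0.41 ± 0.09). Hamp, the iron hormone hepcidin, was not called at 20 µM, with 10876, 13348, 13088, 9784 and 17245 at 48 h, against 11408, 14062, 12872, 14871 and 13799 at 24 h (-0.08 ± 0.25, adjusted p = 0.946). In vehicle it fell by 1.49 on the log2 scale, a difference of 1.41 ± 0.36 (1.71). Of 22 interferon-stimulated genes 4 fell and 0 rose at 20 µM, and 10 fell in vehicle. Mx2, an antiviral GTPase, fell by 0.96 on the log2 scale, but the mean of its probe sets gave -0.34 (adjusted p = 0.327). Oas1a (-0.73 ± 0.14), Usp18 (-0.68 ± 0.14) and Irf7 (-0.67 ± 0.16) were the others. The neutrophil chemokine Cxcl1 had 884, 1079, 965, 651 and 1021 at 48 h, against 3185, 2897, 3124, 2945 and 3357 at 24 h (-1.77 ± 0.13, adjusted p = 7.28e-11), and the difference from vehicle was -1.01 ± 0.19 (-1.03). Cxcl10 and Cxcl11 fell, and Cxcl16 rose, both at 20 µM and in vehicle.

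Hepatocyte transcription factors were lower for 6 of 27 and higher for 0. Foxa1 (-0.62 ± 0.17), Cebpa (-0.43 ± 0.11), Nr1i3, which encodes CAR (-0.35 ± 0.08), and Hnf4a (-0.32 ± 0.05) fell, and the mean of the Hnf4a probe sets was not called (-0.14). Hnf4a also fell in vehicle (-0.40), and the difference was called for Nr1i3 (-0.47 ± 0.11, and -0.54 without the vehicle array). Of 22 genes of growth hormone and insulin signalling, the growth hormone receptor Ghr (-0.24 ± 0.06) and Igf1 (-0.30 ± 0.05) fell and 0 rose. With the mean of all probe sets they changed by -0.09 and -0.07, and neither was called. Clock genes gave 4 lower, among them Bmal1 (-0.67 ± 0.11) and Per2 (-0.42 ± 0.12), and 1 higher of 16, and all harvests were 24 h apart.

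The largest rises included genes best known from other tissues. Acta1, skeletal muscle actin, had 4435, 4849, 4999, 4272 and 6392 at 48 h, against 1247, 1361, 1329, 1055 and 1319 at 24 h (1.97 ± 0.13, adjusted p = 4.88e-12). It rose by 1.27 in vehicle, and the difference was 0.70 ± 0.18 (0.75). Tsx, a testis-expressed X-linked gene, had 5454, 5685, 5937, 7303 and 5599 at 48 h, against 1394, 1317, 1512, 1368 and 1393 at 24 h (2.09 ± 0.18, adjusted p = 2.2e-09) and rose by 1.78 in vehicle. Dpp7, a dipeptidyl peptidase of intracellular vesicles, had 5877, 6255, 5843, 5780 and 6188 at 48 h, against 2709, 2616, 2333, 2456 and 2240 at 24 h, with a difference from vehicle of 0.80 ± 0.17 (0.82). RT1-CE5, a class I histocompatibility gene whose probe sets can read its many relatives, rose by 0.80 ± 0.10, and Oxct1, which lets cells use ketone bodies, by 1.10 ± 0.16.

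Several of the largest changes were in genes with dim signals. S100a1, a calcium-binding protein, had 778, 565, 631, 783 and 654 at 48 h, against 162, 155, 122, 111 and 165 at 24 h, which is in the dim range (2.26 ± 0.50, adjusted p = 0.00444). Its vehicle arrays scattered from 105 to 814 at 48 h and from 120 to 670 at 24 h, and the difference from vehicle was not called (adjusted p = 0.0876). Lrrc8e, an anion channel subunit (1.62 ± 0.47), Miga1, a mitochondrial fusion protein (1.39 ± 0.33), and Tesc, a calcium-binding protein (1.23 ± 0.17), also rose and were dim at 24 h. Tspan2, a tetraspanin (1.18 ± 0.20), Cox6a2, a muscle form of a cytochrome oxidase subunit (1.15 ± 0.31), Pla2r1, a phospholipase A2 receptor (1.13 ± 0.27), and Lrmda (1.12 ± 0.10, and 1.81 with the mean of its probe sets) were also among the 15 largest rises. Dhrs7l1, of the short-chain dehydrogenase family, had 222, 274, 325, 188 and 361 at 48 h, against 1205, 1350, 1352, 1270 and 1328 at 24 h (-2.29 ± 0.14, adjusted p = 1.46e-12), and its difference from vehicle was -2.02 ± 0.20 (-2.03). It fell at 0.8 µM too (-0.94 ± 0.14), with a called difference from that dose (-1.35). Large differences from vehicle were also found for Olr59, an olfactory receptor that was dim at 48 h (-2.16 ± 0.52, and -2.34 without the vehicle array), Sult2a6, a sulfotransferase that was dim at 20 µM (-1.66 ± 0.29, and -1.68), Lratd1 (0.99 ± 0.26, and 0.99) and the serpin Serpina3l (0.87 ± 0.21, and 0.99), which fell at 20 µM by 0.88 and in vehicle by 1.76 on the log2 scale.

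Of 36 cytoskeleton and annexin genes 5 rose and 0 fell, among them Anxa3 (0.45 ± 0.08, and 0.23 and not called with the mean of its probe sets), Tubb5 (0.29 ± 0.07) and Tpm1 (0.26 ± 0.05), and 6 rose and 1 fell in vehicle. Krt8, the main hepatocyte keratin, changed by 0.02 ± 0.08 (adjusted p = 0.959). Junction genes were lower for 6 of 20 and higher for 1. Gjb1, the gap junction protein connexin 32, had 6294, 6224, 6529, 6077 and 5931 at 48 h, against 9366, 8731, 8716, 8622 and 8941 at 24 h (-0.52 ± 0.07, adjusted p = 3.94e-06), and the difference from vehicle was -0.38 ± 0.09 (-0.45). Cd9, a tetraspanin, was the junction gene that rose (0.70 ± 0.11). Among 35 matrix genes 3 fell and 1, the laminin chain Lamb3, rose (0.94 ± 0.09). Ccn2, connective tissue growth factor, had 2619, 2876, 2785, 2338 and 3036 at 48 h, against 3467, 3480, 3917, 4030 and 3819 at 24 h (-0.46 ± 0.07, adjusted p = 6.37e-05), and rose by 0.37 in vehicle.

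In all, 30 genes were called in opposite directions at 20 µM and in vehicle. A called difference was also required for this set, so it adds nothing to the opposite calls. The 19 that fell at 20 µM and rose in vehicle were led by Ces1d, Cyp3a18, Akr1c1, Slco1a1 and Omd. Akr1c1, an aldo-keto reductase of steroid metabolism whose probe sets can read relatives, had 1235, 1061, 887, 1115 and 991 at 48 h, against 2056, 1783, 1941, 1754 and 1956 at 24 h (-0.85 ± 0.15, adjusted p = 0.000278), and rose by 0.84 in vehicle. The 11 that rose at 20 µM and fell in vehicle were led by Cd68 and Cd63. Without the vehicle array that stood apart the counts were 32 and 16. Over the same 24 h, 533 genes were called at 0.8 µM (3.75%), 293 higher (2.06%) and 240 lower (1.69%), and 136 of them rose and 136 fell at 20 µM too (28.4% and 27.3% of the 20 µM lists, 46.4% and 56.7% of the 0.8 µM lists). The change at 20 µM differed from that at 0.8 µM for 115 genes (0.809%), 30 with a higher (0.211%) and 85 with a lower value (0.598%), among them Sfn, Fabp1 and Cyp2e1. Without 0.8 µM replicate 1 at 24 h, which lay toward the 48 h arrays, 192 genes differed, 59 with a higher and 133 with a lower value.

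Markers of Kupffer cells, the macrophages of the liver, fell at 20 µM beside these changes. Of 16 markers 12 were measured, 11 above the dim limit, and 8 fell and 1 rose. Clec4f, a lectin restricted to Kupffer cells in rodents, had 318, 381, 348, 216 and 363 at 48 h, against 639, 670, 839, 649 and 772 at 24 h (-1.15 ± 0.21, adjusted p = 0.000547), and fell by 1.26 in vehicle. The complement chains C1qa (-0.48 ± 0.12), C1qb (-1.21 ± 0.25) and C1qc (-0.97 ± 0.17), the receptor Csf1r (-0.88 ± 0.18) and Cd5l (-0.95 ± 0.17) fell too, and the mean of the Cd5l probe sets was not called (-0.48). In vehicle C1qb (-1.18) and C1qc (-0.68) fell, and C1qa (-0.35), Csf1r (-0.27) and Cd5l (-0.51) were not called. The brightest markers, the lysozyme Lyz2 (-0.24 ± 0.07) and the lipopolysaccharide co-receptor Cd14 (-0.38 ± 0.05), fell at 20 µM and were not called in vehicle (0.14 and 0.07). Cd68, a membrane protein of macrophage lysosomes, rose, with 2032, 2473, 2674, 2228 and 2799 at 48 h, against 1461, 1890, 1669, 1993 and 1596 at 24 h (0.50 ± 0.13, adjusted p = 0.0143). It fell by 0.84 in vehicle, a difference of 1.34 ± 0.18 (1.40). The summed signal of the 12 markers was 20797 to 23461 at 48 h and 26873 to 30574 at 24 h in 20 µM, against 30242 to 33044 and 31710 to 33499 in vehicle. Cd14 and Lyz2 made up most of this sum, with geometric mean signals of 10384 and 5431 at 48 h and 13516 and 6433 at 24 h in 20 µM. In such bulk cultures fewer cells of a type and less RNA per cell cannot be told apart.

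**Figure D5:**
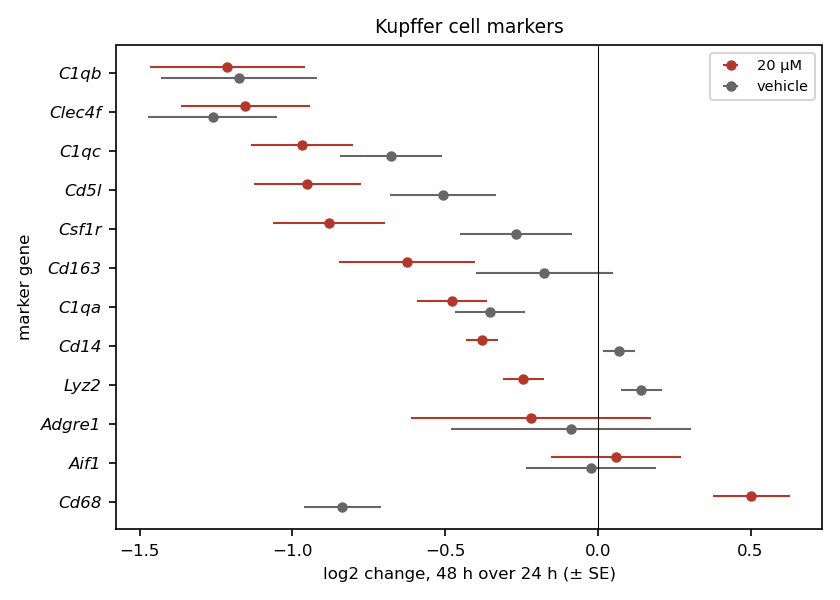
Log2 change from 24 h to 48 h with its SE for the 12 measured Kupffer cell markers, at 20 µM (upper point of each pair) and in vehicle (lower point), with 5 arrays per group. The points of Cd68 lie on opposite sides of 0, and those of C1qb and Clec4f lie below -1 in both.

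Of 14 stellate cell, 11 sinusoidal endothelial and 10 lymphocyte markers measured, limma called 0 at 20 µM, with 3, 2 and 4 at an unadjusted p under 0.05. Over all genes 2704 of 14217 were under that limit. Of 8 cholangiocyte markers 1 rose, Epcam (0.24 ± 0.06), which rose by 0.28 in vehicle. The summed signal of 9 hepatocyte markers was 529729 to 656260 at 48 h and 542256 to 766770 at 24 h in 20 µM, which overlap, and Hnf4a and Fgb were the 2 that fell. The part of the macrophage markers in the falls of Ctss, Cd74 (-1.46 ± 0.19, dim at 48 h) and the chemokines was not tested.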

How the data were processed

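RNA from 30 wells was measured on 30 expression arrays with 1 colour and 1 array per well. The values analysed are the intensities the authors deposited in their series table, on a linear scale. MAS5 is named in the submitters' processing notes, its version is not given in the sources used here, and every array has the same trimmed mean of 1499.9 between its 2nd and 98th percentiles. The table holds 31099 probe sets, of which 57 controls were left out, and 3.86% of its values lie below 16. Values were floored at 16 and log2 transformed. limma 3.58.1 in R 4.3.3 fitted the 6 group means over all 30 arrays (lmFit, eBayes with trend), and p-values were Benjamini-Hochberg adjusted over 31042 probe sets. Adjusted p-values and SEs in the text come from this fit, with 5 arrays per group. Exceptions are values given without a named array or with the mean of all probe sets, which come from fits of those data. Tables and figures were made with Python 3.11.15, numpy 2.4.6, pandas 2.3.3 and matplotlib 3.10.9.

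Of the probe sets tested, 20826 had 1 gene symbol in the platform annotation, 436 had several, and 9780 were not listed and remain unnamed. By Entrez ID 20758 matched RefSeq. The number of arrays limits the precision. In simulated data over 31042 probe sets with this spread and independent normal noise, changes were put only into probe sets above the dim limit. Of these, 12 of 50 changed 1.25-fold were called, 32 of 50 at 1.5-fold, 39 of 50 at 2-fold and 49 of 50 at 4-fold, with 5 false calls among 137. The real comparison called 1396 probe sets. With fewer calls the adjustment asks for a smaller p-value, so these rates do not carry over directly to the data. The rate for dim probe sets was not simulated.

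The members, gene lists, markers and tests were chosen with earlier results of these data known. Most genes printed were taken from 170 that a rule gave: the 15 largest rises and falls, the 10 largest positive and negative differences from vehicle, up to 4 called members per list, and a panel of 34 genes, of which 3 are not analysed here. Called cell type markers were printed beside these. Ehhadh, Vnn1, Lamp1 and Cd63 were added after their values were seen, as were the opposite calls in vehicle and the vehicle array that stood apart. Alternatives covered the floor, a filter on dim probe sets, centring, quantile normalization, the trend, array weights, the groups in the fit, array number as a covariate or block, the probe set rule, the threshold, and each array left out.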

Additional observations from a re-analysis of the deposited data

Results flagged for a closer look

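Single arrays stood apart within a group of 5 for 20 of 336 groups tested (6.0%), and chance alone gives about 5%. The measure is the gap from the extreme array to its neighbour as a share of the group's range on the log2 scale, with a critical value of 0.71. Among the 20 µM arrays at 48 h, replicate 5 was lowest for Otc (0.877), Vnn1 (0.793), Cdkn1a (0.775) and Apcs (0.743), and highest for Eno2 (0.732). Replicate 4 at 48 h was lowest for Cyp3a2 (0.884), Sult2a6 (0.871), Ctss (0.861), Cyp2c12 (0.818) and Pck1 (0.782). Replicate 1 at 48 h was lowest for Cds1 (0.922) and Slc22a8 (0.813) and highest for Sardh (0.748). Among the 20 µM arrays at 24 h, replicate 4 was lowest for Cyp4a1 (0.792) and highest for Ebp (0.721), replicate 1 was lowest for Naglu (0.757), replicate 2 was highest for Lamp1 (0.735), and replicate 5 was lowest for Slco1b2 (0.71). Vehicle replicate 5 at 24 h was lowest for Fabp1 (0.802) and highest for Cyp7a1 (0.738). It is the vehicle array that stood apart over many genes.

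Of the 159 genes named, 62 changed differently over time at 20 µM than in vehicle, and 30 changed differently than at 0.8 µM, by the test of the difference itself (limma, adjusted p under 0.05). Each value is the difference in log2 change, and both sets share the 20 µM arrays. The log2 change at 20 µM minus that in vehicle was negative for Cyp2c12 (-2.52), Ces1d (-2.26), Olr59 (-2.16), Dhrs7l1 (-2.02), Sult1e1 (-2.01), Otc (-1.95), Cyp2e1 (-1.78), Akr1c1 (-1.69) and Sult2a6 (-1.66). The same quantity was Fabp1 (-1.56), Cyp2c11 (-1.46), Cyp4a1 (-1.42), Slco1a1 (-1.36), Cyp3a18 (-1.34), Slc10a1 (-1.18), Klkb1 (-1.14), Slco1b2 (-1.14) and Ehhadh (-1.08). Further values were Angptl4 (-1.07), Slc27a5 (-1.05), Vnn1 (-1.05), Cxcl1 (-1.01), Pdk4 (-0.96), Ccn2 (-0.83), Pemt (-0.74), Cth (-0.69) and C8b (-0.58). It was also found for Pc (-0.53), Nr1i3 (-0.47), Bhmt (-0.46), Cd14 (-0.45), Ebp (-0.41), Lyz2 (-0.39), Gjb1 (-0.38) and Igf1 (-0.27). That difference was positive for Eno2 (1.55), Sfn (1.48), Hamp (1.41), Cd68 (1.34), Tesc (1.12), Slc16a3 (1.09), RT1-CE5 (1.08), Lratd1 (0.99) and Oxct1 (0.94). The values went on with Serpina3l (0.87), Dpp7 (0.80), Ddit3 (0.73), Acta1 (0.70), Lrmda (0.67), Casp4 (0.64), Cd63 (0.57), Cyp1a2 (0.54) and Gpnmb (0.54). Next came Atp6v0b (0.53), Manba (0.51), Atp6v1b2 (0.49), Lamtor3 (0.47), Atp6v1d (0.45), Pfkp (0.40), Atp6v1f (0.33), Optn (0.32) and Pcna (0.27).

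The log2 change at 20 µM minus that at 0.8 µM was negative for Ces1d (-1.68), Cyp4a1 (-1.52), Cyp2e1 (-1.50), Akr1c1 (-1.42), Dhrs7l1 (-1.35), Angptl4 (-1.19), Klkb1 (-1.16), Fabp1 (-1.13) and Pdk4 (-0.97). Also below 0 were Slc10a1 (-0.96), Slc27a5 (-0.94), Cyp2c11 (-0.83), Cyp3a18 (-0.81), Cyp8b1 (-0.73), Insig2 (-0.61), Bhmt (-0.60), Ccn2 (-0.54) and C8b (-0.52). Nearer to 0 were Lyz2 (-0.42), Gjb1 (-0.41) and Igf1 (-0.29). It was positive for Cd68 (1.30), Eno2 (1.17), Sfn (0.97), Casp4 (0.83), RT1-CE5 (0.77), Cd63 (0.52), Manba (0.47), Lamtor3 (0.35) and Atp6v1f (0.30).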

How the results depend on the processing

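The count of genes called at 20 µM (978) stayed within 1.5 times under every alternative but 1. With an adjusted p under 0.01 the counts were 575 at 20 µM, 681 in vehicle, 282 at 0.8 µM, 163 for the difference from vehicle and 47 for the difference from 0.8 µM. With arrays centred on their medians they were 654 at 20 µM, 275 higher and 379 lower, where all arrays as scaled gave 479 and 499. In vehicle centring gave 819, at 0.8 µM 335, for the difference from vehicle 185 and for that from 0.8 µM 50. Without the trend in eBayes the 2 differences had 173 and 49. With only the compared groups in the fit 738 genes were called in vehicle and 244 at 0.8 µM. Leaving out each array of a comparison in turn gave 778 to 910 genes at 20 µM, 963 to 1358 in vehicle, 387 to 685 at 0.8 µM, 249 to 482 for the difference from vehicle and 75 to 192 for that from 0.8 µM. The highest vehicle count and difference from vehicle came without vehicle replicate 5 at 24 h. For the difference from 0.8 µM, 75 genes were called without 20 µM replicate 3 at 24 h and 192 without 0.8 µM replicate 1 at 24 h. The causes were not tested. At 20 µM the deviations of the 48 h and 24 h arrays with the same replicate number correlated at -0.013 to 0.087. Arrays with different numbers were not set beside these, so whether the numbers pair the arrays cannot be decided from them. Pairing was not examined in vehicle or at 0.8 µM. With the replicate block 1046, 1273, 589, 389 and 133 genes were called in the same order. No result reversed under the alternatives run. Of 246 values of single genes, 54 lost their call at an adjusted p under 0.01, 32 without the trend, 30 with centring and 22 with the mean of all probe sets. With 1 array left out, 290 of 3090 such values lost their call. Among the genes named, 21 calls at 20 µM and 15 of the difference from vehicle were lost with at least 1 of the 10 arrays at 20 µM left out. Those lost with 6 or more were Aldh1a1, Ccne2, Cd63, Cyp27a1, Cyp4a1, Foxa1, Lrrc8e, Lyz2 and Per2 at 20 µM, and Acta1, Atp6v1d, Gpnmb, Hamp, Lratd1 and Pcna for the difference. Dim probe sets limit what can be called.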
